A study of Saccharomyces cerevisiae with 14 samples.

Results

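The second galactose interval is the span between the first and the second sampling, T1 and T2, of yeast cultures in which human LIM kinase 1 (LIMK1) was induced while a library of cofilin variants competed for growth. It was read in 6 of the 24 libraries of the series, which were a T1 and a T2 library from each of 3 screens, chosen by their labels and paired by screen. All 16000 variants were counted in each of them, and every change is the read share of a variant at T2 over its share at T1 in the same screen. The host was the TeTO7-COF1 strain of budding yeast, in which doxycycline (DOX) switches off COF1, the gene of the yeast's own cofilin. Cells carried a plasmid with a human cofilin-1 variant under the constitutive GPD promoter and a plasmid with full-length LIMK1 under the GAL1 promoter, which is active in galactose and repressed in glucose. Every variant had a His6 tag ahead of its initiator methionine, so the varied tail was not a free N-terminus. The authors added the tag to prevent processing such as methionine removal and acetylation and to even out expression. Both T1 and T2 cells grew in 2% raffinose and 1% galactose with 10 mg/L DOX, and they were compared with cells of the same screens grown over the same interval in 2% glucose with 10 mg/L DOX. Growth in the 2 media differs in the sugar as well as in LIMK1, and these cannot be told apart from the counts of a variant alone. The 3 screens started from aliquots of 1 transformed pool, so errors speak for these screens only. Values after ± are SDs, the spread between the screens. Each SE comes from a test that shares its estimate of spread over all variants, pairs or terms.

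Cofilin binds actin filaments, severs them and speeds their disassembly, and yeast without it does not grow. Its unstructured N-terminal tail forms part of the actin-binding surface. LIMK1 phosphorylates Ser3 of the tail, which weakens actin binding and inactivates cofilin, and it uses Thr poorly as an acceptor. Residues at positions 2, 4 and 5 were each varied over all 20 amino acids, and position 3 was Ser or Thr, so that 8000 variants had Ser3 and 8000 had Thr3. A variant is named by its residues at positions 2 to 5.

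The coding sequences of the tails on which the results turn are given for the sense strand, with the codon of position 3 in capitals for the human tail ASGV, its Thr3 partner and the Thr3 tail KTGI.

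ASGV: gctAGCggtgtt
ATGV: gctACCggtgtt
KTGI: aaaACCggtatc

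The codon of position 4 is in capitals for 3 exchanges of Gly4 in the human tail (ASLV, ASFV and ASAV) and for 3 tails at the ends of the range, the rising Ser3 tail PSFT, the falling Ser3 tail GSCC and the falling Thr3 tail PTYV.

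ASLV: gctagcCTGgtt
ASFV: gctagcTTCgtt
ASAV: gctagcGCTgtt
PSFT: ccgagcTTCact
GSCC: ggtagcTGCtgc
PTYV: ccgaccTACgtt

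The T1 libraries held 18909009 to 36675500 reads and the T2 libraries 11562967 to 42922753. The median variant had 225 to 362.5 reads at T1 and 32 to 117 at T2, and 3506, 740 and 4466 variants had fewer than 10 reads at T2 in screens 1, 2 and 3. Variants are called enriched below when their score in glucose was above 0, the score being the ratio of T2 share to T0 share, averaged over screens and put on the log2 scale, where T0 is the start of the split cultures. That score uses none of the galactose libraries. By it 1833 Ser3 and 2266 Thr3 variants were enriched, and these had median T2 counts of 3261, 6637 and 2048 reads in galactose. The changes of enriched variants correlated between screens with a Pearson's r of 0.921 to 0.940 across variants, which are not independent replicates, and those of all variants with 0.656 to 0.715. The spread of changes over all variants was wider in screen 1 (SD 1.80) than in screens 2 and 3 (1.17 and 1.49), and the number of doublings per screen is not given in the sources used here.

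Within this interval the pool moved towards enriched Thr3 variants. Ser3 variants held 45.3, 42.5 and 43.9% of reads at T1 and 30.1, 29.6 and 34.3% at T2 in the 3 screens, so the T2 values all lay below the T1 values. In glucose the share of Ser3 variants was 41.8% ± 0.283 (SD, n = 3) at T1 and 40.6% ± 0.695 at T2. Enriched Thr3 variants went from 44.4% ± 2.56 to 64.0% ± 3.45 of reads in galactose, and enriched Ser3 variants from 34.9% ± 0.352 to 28.8% ± 2.06. In glucose both groups took a larger share at T2, with 55.3% ± 1.14 against 44.0% ± 0.248 for Thr3 and 37.2% ± 0.933 against 30.3% ± 0.651 for Ser3. The score that defines enriched variants uses these same glucose T2 libraries, so their rise in glucose is partly set by the choice and is no independent control. The most abundant variant at T2 in galactose was VTGI in screen 1, with 1991 reads per 1000000 reads (RPM), and CTFT in screens 2 and 3, with 2150 and 1511.

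Of all 16000 variants, 1650 rose (10.3%) and 11678 fell (73%) as shares of reads (edgeR quasi-likelihood test with the screen as a block, adjusted p under 0.05). These percentages are the background for the counts that follow. Among enriched Ser3 variants 387 of 1833 rose (21.1%) and 953 fell, whereas among enriched Thr3 variants 1262 of 2266 rose (55.7%) and 249 fell. Of the 6167 Ser3 variants that were not enriched, 5520 fell and 0 rose, and of the 5734 such Thr3 variants 4956 fell. The Thr3 tail STGL, singled out after its values were seen, was the 1 variant that rose without being enriched, and its score in glucose was -0.04. The histograms of changes show enriched Ser3 variants spread over a range from about -2.24 (10th percentile) to 0.60 (90th percentile) and enriched Thr3 variants in a narrower range from -0.42 to 1.00. These directions are relative to the pool, which lost reads from most variants. Another scale was set by the variants with a charged residue at position 5 (Asp, Glu, Lys, Arg or His, with His counted as charged). These fell from 3.98, 2.77 and 3.27% of reads to 1.02, 1.12 and 1.29%. On this charged scale 3702 variants rose and 3577 fell. With TMM factors the counts were 3534 and 4715, and with DESeq2's size factors 3998 and 1957. The charged scale moves every change up by 1.97, 1.31 and 1.34 in screens 1, 2 and 3, so that falls given below that are smaller than this lie above 0 on it, while differences between groups of variants within a culture do not depend on the scale.

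**Figure D1:**
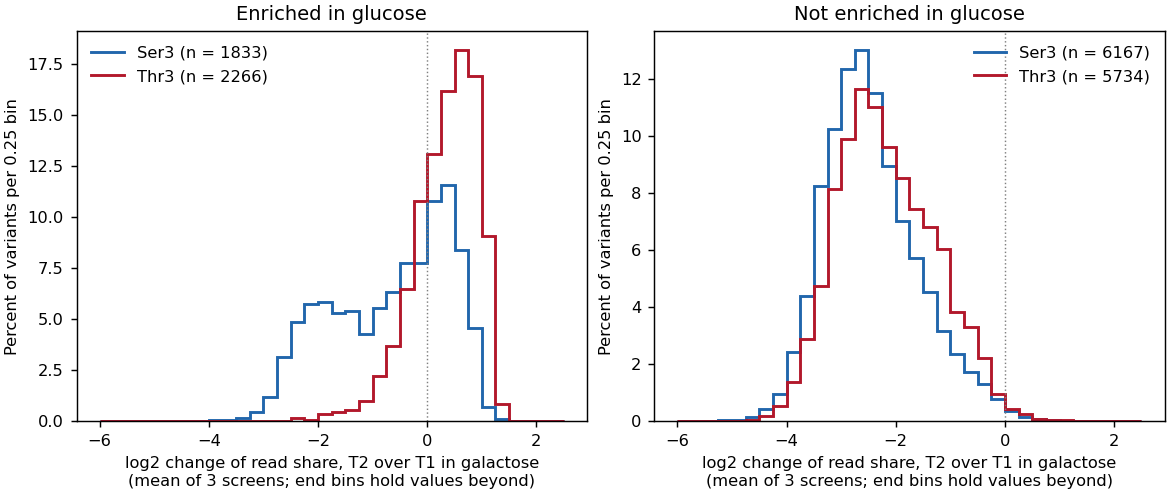
Histograms of the log2 change of read share from T1 to T2 in galactose (x axis, mean of 3 screens) against the percent of variants per bin (y axis), with enriched variants on the left and the others on the right, Ser3 in blue and Thr3 in red; the dotted line marks 0. Enriched Thr3 variants peak above 0 (median -0.45 for Ser3 and 0.43 for Thr3), with the Ser3 median moving to 1.09 on the charged scale, and variants that were not enriched lie mostly below -1.

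As shares of reads the native Ser3 tails fell and their Thr3 partners rose, although on the 3 other scales the Ser3 values were above 0. The human tail ASGV had 355, 369 and 295 RPM at T1 and 207, 206 and 227 at T2 in screens 1, 2 and 3. All T2 values lay below all T1 values, with a log2 change of -0.67 (SE 0.13, adjusted p = 2.33e-06), although on the TMM, DESeq2 and charged scales its change was 0.73, 1.15 and 0.87. ATGV, which differs only in the Thr codon, had 283, 263 and 224 RPM at T1 and 704, 574 and 452 at T2. Its groups did not overlap either, and it rose by 1.15 (SE 0.13, adjusted p = 2.06e-18), 2.22 times its T1 share. The yeast tail RSGV went from 287, 366 and 321 to 143, 132 and 191 RPM, a log2 change of -1.08 (SE 0.14). On the 3 other scales its values of 0.32, 0.74 and 0.47 did not pass (edgeR, adjusted p of 0.359, 0.115 and 0.224). RTGV went from 679, 519 and 377 to 1915, 1103 and 711 and rose by 1.17 (SE 0.12). The Arabidopsis tail ASGM, with Met5 in place of Val5, fell least of the native tails. It went from 503, 454 and 594 to 324, 252 and 548 RPM, so that its groups overlapped, with a log2 change of -0.53 (SE 0.12), and 0.86, 1.28 and 1.01 on the other scales. Its partner ATGM rose by 1.13 (SE 0.13). Within pairs, the Thr3 tail exceeded the Ser3 tail by 1.82 (SE 0.17) for ASGV, 2.24 (SE 0.17) for RSGV and 1.66 (SE 0.18) for ASGM (limma, adjusted p of 2.92e-06, 8.41e-07 and 7.55e-06). These differences do not depend on the scale, but when limma was run without the trend the ASGV and ASGM pairs did not pass (adjusted p of 0.0510 and 0.0650).

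Asp and Leu at position 2 of the human tail were examined next. DSGV, with acidic Asp2, had 426, 367 and 431 RPM at T1 and 109, 113 and 185 at T2, with a log2 change of -1.63 (SE 0.14). On the TMM, DESeq2 and charged scales its values were -0.24, 0.18 and -0.09 and did not pass (edgeR, adjusted p of 0.498, 0.718 and 0.827). Its Thr3 partner DTGV rose by 1.23 (SE 0.12), and the difference of 2.86 (SE 0.19, limma, adjusted p = 6.31e-07) exceeded that of each native pair in size, without a test between pairs. LSGV went from 95.4, 125 and 139 to 45.4, 50.1 and 88.8 RPM, a log2 change of -1.01 (SE 0.20). Its values of 0.38, 0.80 and 0.53 on the TMM, DESeq2 and charged scales did not pass (edgeR, adjusted p of 0.242, 0.0556 and 0.123). LSGM, which joins Leu2 and Met5, had a log2 change of -0.27 (SE 0.14) that did not pass (edgeR, adjusted p = 0.0529, and 0.0112 without screen 3). On the TMM, DESeq2 and charged scales it passed in the other direction, with 1.12, 1.54 and 1.27. Its partner LTGM rose by 1.27 (SE 0.13).

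Exchanges of Gly4 in the human tail gave both directions. ASLV, with Leu4, had 143, 220 and 109 RPM at T1 and 203, 288 and 163 at T2. It was higher at T2 in every screen although the groups overlapped, and it rose by 0.49 (SE 0.14). ASFV, with Phe4, went from 191, 217 and 185 to 240, 251 and 258 RPM without overlap and rose by 0.34 (SE 0.14, edgeR, adjusted p = 0.0156), a call that was lost without screen 1 (adjusted p = 0.0544) or screen 3 (adjusted p = 0.103). ASWV, with Trp4, rose by 0.69, and the change of ASIV, with Ile4, did not pass (edgeR, adjusted p = 0.996), although on the TMM, DESeq2 and charged scales ASIV rose by 1.39, 1.81 and 1.54. Over the 20 residues at position 4 of the human tail, 3 rose and 15 fell, near the 10.3% and 73% of all variants, with a median of -2.04. Of these 20 tails 10 were enriched in glucose. By the edgeR test of the galactose minus glucose difference (adjusted p under 0.05), 6 changed more downward in galactose. ASAV fell by 2.37 (SE 0.61), ASKV by 2.93 (SE 0.69), ASEV by 2.33 (SE 0.74) and ASPV by 1.34 (SE 0.49), and these 4 tails were not enriched in glucose. Over the same interval in glucose their mean changes were -2.24, -1.96, -1.56 and -2.35. The differences between the sugars of -0.15, -0.98, -0.75 and 1.01 did not pass (edgeR, adjusted p of 0.961, 0.630, 0.779 and 0.536). On the TMM, DESeq2 and charged scales the values of ASAV (-0.97, -0.55 and -0.82) and ASEV (-0.96, -0.55 and -0.81) did not pass, nor did that of ASKV on the DESeq2 scale (-1.11). Without screen 1 the value of ASPV was -0.72 and did not pass (edgeR, adjusted p = 0.171). On the TMM, DESeq2 and charged scales it was 0.05, 0.47 and 0.19 and did not pass either. Among the enriched members, ASVV and ASYV fell by 2.53 and 2.40, more than ASGV, and did not pass on the DESeq2 scale (-0.71 and -0.59). In the Thr3 series, with 11 of 20 tails enriched, 5 rose and 11 fell. ATGV and ATWV were highest with 1.15 and 1.11. ATYV fell by 1.61, while on the TMM, DESeq2 and charged scales its values of -0.22, 0.20 and -0.07 did not pass. ATLV and ATFV rose by 0.75 and 0.66, and the differences to ASLV and ASFV of 0.25 (SE 0.16) and 0.32 (SE 0.17) did not pass (limma, adjusted p of 0.288 and 0.187). ATAV fell by 0.74 (SE 0.26) and did not pass without screen 2 (edgeR, adjusted p = 0.0557). On the TMM, DESeq2 and charged scales its value was 0.65, 1.07 and 0.80, of which the first did not pass (edgeR, adjusted p = 0.0567).

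Over the 20 residues at position 5 of the human Ser3 tail, ASGV included, all fell as shares of reads, with a median of -2.12. Only 10 of these tails were enriched in glucose. By the edgeR test of the galactose minus glucose difference (adjusted p under 0.05), 9 changed more downward in galactose. ASGM and ASGV fell least, and both were above 0 on the 3 other scales. ASGE, with an acidic residue, fell by 3.10 (SE 0.78) from 4.66, 3.14 and 3.07 RPM, its highest T2 count was 25 reads, and it did not pass on the DESeq2 scale (-1.30). It was not enriched, and its mean change in glucose was -2.33. The difference between the sugars of -0.88 (SE 0.94) did not pass (edgeR, adjusted p = 0.736). In the Thr3 series ATGx 6 of 20 rose and 12 fell, and ATGI, with Ile5, was highest at 1.27. Of these 20 tails 6 were enriched, and 0 differed between the sugars in either direction. FTGL went from 126, 211 and 210 RPM to 179, 305 and 311 and rose by 0.54 (SE 0.14). Its Ser3 partner FSGL was not enriched and its change of -0.95 (SE 0.69) did not pass (edgeR, adjusted p = 0.184).

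**Figure D2:**
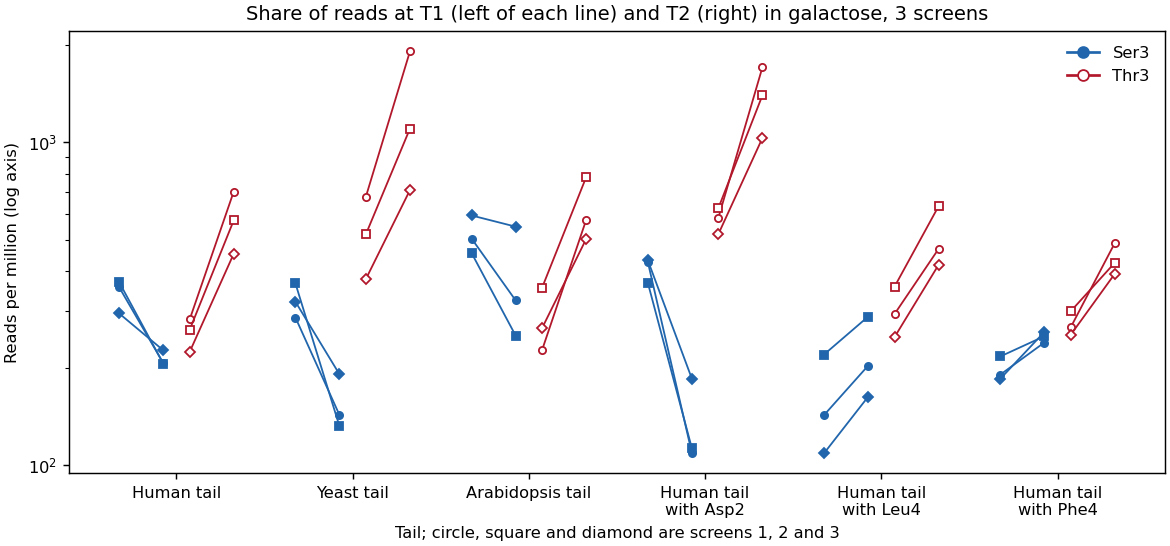
RPM (log axis) at T1 and T2 in galactose for 6 tails, each line a screen, Ser3 filled and blue, Thr3 open and red. The lines of the human, yeast and Arabidopsis tails and of the Asp2 exchange go down with Ser3 and up with Thr3 as shares of reads, while those with Leu4 or Phe4 go up with either residue. On the TMM, DESeq2 and charged scales the human, yeast and Arabidopsis Ser3 tails lie above 0, as does the Asp2 exchange on the DESeq2 scale (0.18). The values of the yeast tail and the Asp2 exchange did not pass on those scales.

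Over all enriched variants the median change was -0.47, -0.69 and -0.18 for Ser3 and 0.52, 0.34 and 0.43 for Thr3 in the 3 screens. The Thr3 median exceeded the Ser3 median in every screen, by 0.99, 1.03 and 0.61, with a mean of 0.88 ± 0.23 (SD, n = 3, exact permutation of signs, two-sided p = 0.25, the smallest that 3 screens allow). For variants that were not enriched the same difference was 0.32 ± 0.02, and their medians were -2.53 ± 0.55 (Ser3) and -2.21 ± 0.54 (Thr3). The Ser3 median of -0.45 ± 0.25 becomes 1.09 on the charged scale.

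The residue at position 4 divided the enriched Ser3 variants. With a large hydrophobic residue (Leu, Phe or Trp) 282 of 524 rose and 57 fell, and their median change was 0.40 ± 0.10 (SD, n = 3). With a small residue (Gly, Ala, Ser or Cys) 367 of 418 fell, with a median of -1.59 ± 0.38, which was -0.05 on the charged scale. The classes differed by 1.99 ± 0.38, in the same direction in every screen (exact permutation of signs, p = 0.25, the smallest possible). Polar residues (Asn, Gln, Thr) fell in 152 of 176 variants with a median of -1.55 ± 0.25, basic residues in 96 of 113 with -1.26 ± 0.27 and acidic residues in 26 of 28 with -1.72 ± 0.27. Ile, Met and Val together lay between, with 84 of 425 that rose and 160 that fell. The class split there, since Ile4 had a median of 0.17 ± 0.11 and Met4 of -0.10 ± 0.21, but Val4 of -1.21 ± 0.28, with 85 of 107 that fell. Tyr4 variants fell in 91 of 111 cases with a median of -1.06 ± 0.32, although Phe4, which differs by a hydroxyl group, had a median of 0.35 ± 0.12. On the charged scale the medians of Val4, Met4, Tyr4 and the basic class are above 0.

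Tested as residue terms, the mean change of enriched variants with a residue minus the mean of all enriched variants with the same residue at position 3, 30 of 103 terms were higher (29.1%) and 46 lower (44.7%) (limma, adjusted p under 0.05). For Ser3 the highest terms were Leu4 with 1.07 (SE 0.06), Phe4 with 0.91 (SE 0.06), Trp4 with 0.86 (SE 0.06), Gly5 with 0.78 (SE 0.07), Ile4 with 0.76 (SE 0.04) and Pro4 with 0.65 (SE 0.06). A term is not adjusted for the residues at the other positions. Of the 55 enriched Ser3 variants with Gly5, 17 had Leu4, 11 Ile4, 11 Met4 and 8 Phe4, so the Gly5 term is not separated from that make-up. The lowest were Gln4 with -1.91 (SE 0.13), Ala4 with -1.54 (SE 0.12), Pro5 with -1.52 (SE 0.11), Thr4 with -1.34 (SE 0.11) and Ser4 with -1.30 (SE 0.10). Gly4, the residue of native tails, was at -0.72 (SE 0.07), less low than Ala4 or Ser4 of the same class but lower than Cys4 (-0.51, SE 0.03). For Thr3 the range of terms was narrower. Leu4 (0.36, SE 0.04), Gly4 (0.34, SE 0.04), Trp4 (0.31, SE 0.04), Met5 (0.31, SE 0.03) and Thr5 (0.30, SE 0.03) were highest. Pro5 (-0.63, SE 0.06), Tyr4 (-0.63, SE 0.06), Glu4 (-0.62, SE 0.06), Gln4 (-0.62, SE 0.04) and Gly2 (-0.45, SE 0.04) were lowest. Gly4 thus had a lower term with Ser3 and a higher term with Thr3, and the medians of its enriched variants were -1.40 ± 0.40 and 0.86 ± 0.13.

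**Figure D3:**
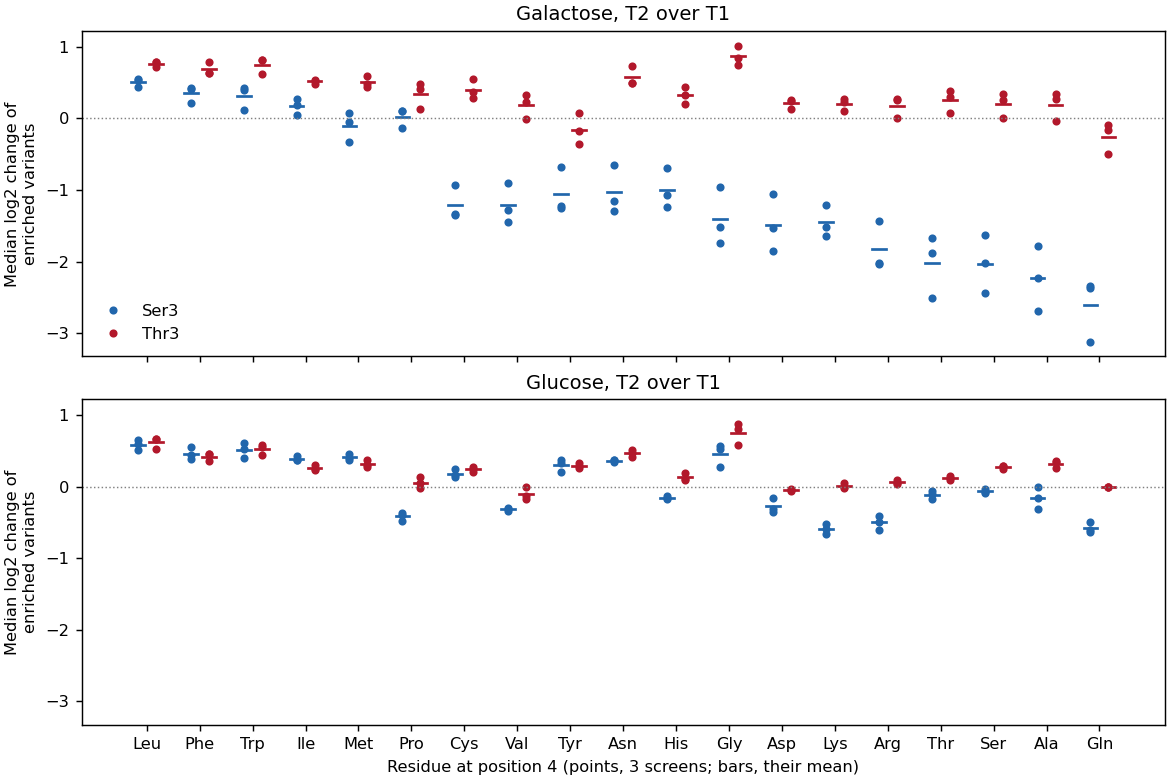
Median log2 change from T1 to T2 (y axis) of enriched variants with each residue at position 4 (x axis) in galactose (top) and glucose (bottom), Ser3 in blue and Thr3 in red; points are the 3 screens and bars their mean. Ser3 medians in galactose run from 0.51 (Leu4) to -2.61 (Gln4) and Thr3 medians from 0.86 (Gly4) to -0.25 (Gln4), while in glucose most medians of both lie near or above 0; the charged scale moves every galactose value up by 1.31 or more, which puts the smaller falls above 0. Enriched variants were chosen with the glucose T2 libraries, so the level of the glucose medians is partly set by the choice.

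The residue at position 5 changed how far Gly4 variants with Ser3 fell. With Thr5 19 of 19 fell and the median was -1.87 ± 0.33, with Ala5 19 of 19 with -2.23 ± 0.38, with Cys5 18 of 18 with -1.58 ± 0.37 and with Leu5 18 of 18 with -1.52 ± 0.42. With Val5, as in the human and yeast tails, 19 of 20 fell with a median of -1.01 ± 0.35, and with Ile5 18 of 20 with -0.90 ± 0.42. With Met5, as in the Arabidopsis tail, 9 of 20 fell and 0 rose, and the median was -0.34 ± 0.36, so the spreads of Val5, Ile5 and Met5 overlap, and the differences among them were not tested. The difference between Met5 and Thr5, taken within each screen, was 1.54 ± 0.18 (exact permutation of signs, p = 0.25). Among Gly4 variants with Thr3 all 20 with Ile5, all 20 with Met5 and all 20 with Val5 rose, with medians of 1.18 ± 0.30, 1.13 ± 0.25 and 1.14 ± 0.25, and 18 of 20 with Thr5 rose, with 0.87 ± 0.14. The Gly4 medians of Val5, Ile5 and Met5 with Ser3 are above 0 on the charged scale.

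Other residues at position 4 also differed with the residue at position 5. With Leu4 and Ser3 all 20 Met5 variants rose (median 0.70 ± 0.15), as did all 20 with Phe4 (0.95 ± 0.12), while with Phe4 and Ala5 6 of 8 fell (-1.11 ± 0.05). Among the Ser3 variants with Tyr4, 6 of 20 rose with Met5 (median 0.09 ± 0.22), and all 20 with Ile5, all 17 with Thr5 and all 19 with Val5 fell. The Ser3 medians of Tyr4 with Ile5 (-1.11 ± 0.37) and Thr5 (-1.14 ± 0.24) lie above 0 on the charged scale.

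**Figure D4:**
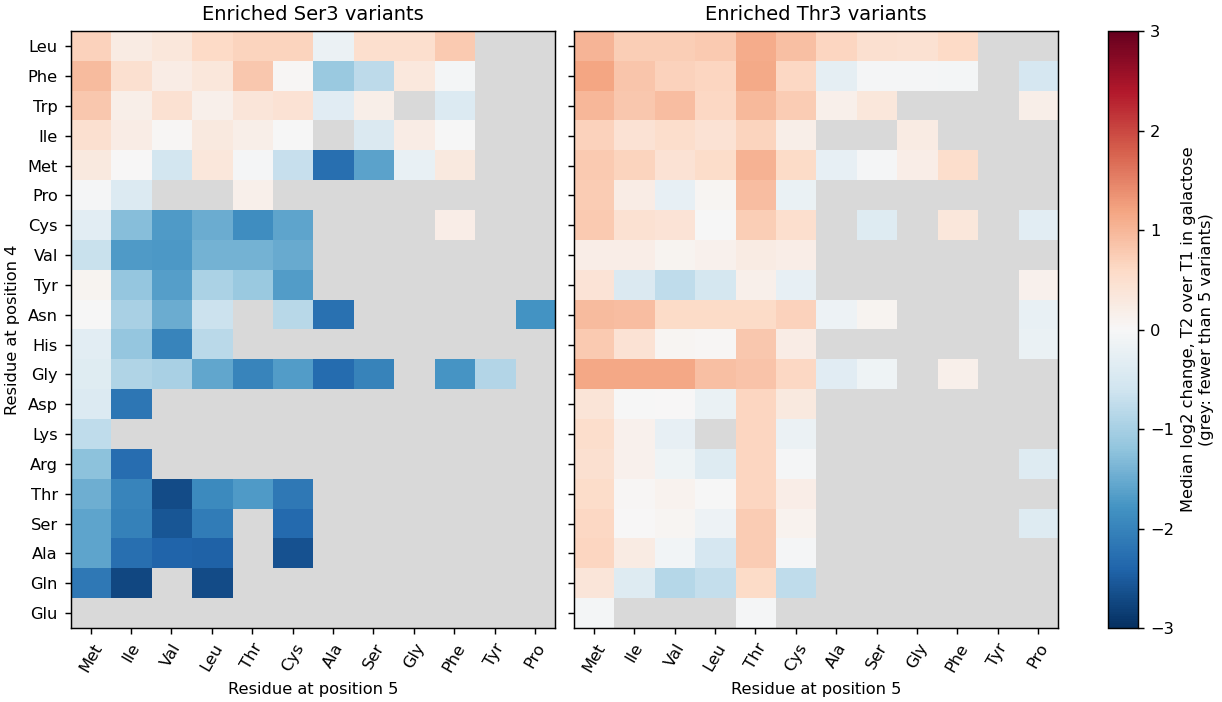
Median log2 change from T1 to T2 in galactose (colour, mean of 3 screens) of enriched variants by the residue at position 4 (rows) and position 5 (columns), Ser3 left and Thr3 right; grey cells hold fewer than 5 enriched variants. The Ser3 panel is mostly red in the rows from Leu to Ile (medians of 0.51 to 0.17), with exceptions such as Phe4 with Ala5 (-1.11), and mostly blue from Cys to Gln, where the Met column is among the palest, and the Thr3 panel is mostly red with bluer cells for Tyr and Gln; the charged scale moves every cell up by 1.31 or more, which turns the paler blue cells red.

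At position 2 the range was smaller. Lys2 variants with Ser3 had the highest term (0.36, SE 0.04), followed by Cys2 (0.27, SE 0.05), and Met2 (-0.24, SE 0.02), Gly2 (-0.22, SE 0.05) and Val2 (-0.20, SE 0.03) had the lowest. Lys2 variants were divided again by the residue at position 4. With a small residue at position 4, the median of Lys2 variants was -1.82 ± 0.36 and 11 of 13 fell, and that of Gly2 variants was -2.23 ± 0.53, with 18 of 18 that fell. Both values lie below -1.59, the median of all enriched Ser3 variants with a small residue there, without a test. With a large hydrophobic residue at position 4, Lys2 variants had a median of 0.67 ± 0.06 and 22 of 26 rose, Arg2 variants 0.61 ± 0.10 with 18 of 28, and Asp2 variants -0.17 ± 0.16 with 7 of 18 that fell, a median that lies above 0 on the charged scale.

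Within enriched Thr3 variants, those with Gln4, Glu4 or Tyr4 had the lowest medians, the Glu4 median being -0.17. Tyr4 variants had a median of -0.16 ± 0.22, 55 of 126 fell and 32 rose, and Gln4 variants had -0.25 ± 0.22, with 40 of 79 that fell. Of the 249 enriched Thr3 variants that fell, 55 had Tyr4 and 40 had Gln4, and the medians of Tyr4, Gln4 and Glu4 are above 0 on the charged scale. The Tyr4 median minus the Phe4 median was -0.97, -0.99 and -0.56 in the 3 screens, a mean difference of -0.84 ± 0.24 (exact permutation of signs, p = 0.25). PTYV had 335, 240 and 251 RPM at T1 and 50.4, 55.7 and 62.3 at T2, without overlap, and fell by 2.28 (SE 0.16, edgeR, adjusted p = 7.61e-45). PTYL and KTYC fell by 2.05 (SE 0.16) and 2.34 (SE 0.20). PTYV and its Ser3 partner differed by 0.09 (SE 0.23, limma, adjusted p = 0.834), less than the error of the difference. GTAV and GTEM, with Gly2, fell by 2.48 (SE 0.31) and 2.46 (SE 0.29) and complete the 5 largest falls among enriched Thr3 variants. With DESeq2's size factors none of these 5 falls passed, at -0.47 for PTYV, -0.24 for PTYL, -0.53 for KTYC, -0.67 for GTAV and -0.67 for GTEM (edgeR, adjusted p from 0.121 to 0.603), and PTYL did not pass on the charged scale (-0.51).

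The 5 largest rises among Thr3 variants were KTGI (1.43, SE 0.13), LTWM (1.38, SE 0.13), PTGI (1.37, SE 0.13), TTLT (1.32, SE 0.17) and CTGM (1.31, SE 0.12), all enriched and with Gly, Trp or Leu at position 4. KTGI went from 139, 196 and 164 to 534, 454 and 361 RPM without overlap, 2.69 times its T1 share. The 5 largest rises among Ser3 variants were RSLL (1.49, SE 0.49), PSFT (1.28, SE 0.13), ISLF (1.18, SE 0.12), KSFM (1.15, SE 0.13) and RSFM (1.15, SE 0.12). All had Leu4 or Phe4. RSLL rested on 304, 454 and 612 reads at T2 and did not pass without screen 3 (edgeR, adjusted p = 0.128). PSFT had 235, 337 and 182 RPM at T1 and 749, 747 and 369 at T2, without overlap, and its Thr3 partner differed from it by 0.01 (SE 0.10).

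The largest falls among enriched Ser3 variants were those of WSHP (-3.77, SE 0.57), GSCT (-3.59, SE 0.64), SSQL (-3.42, SE 0.55), GSCC (-3.39, SE 0.33) and MSTA (-3.29, SE 0.65). GSCC had 143, 55.8 and 68.4 RPM at T1 and 4.81, 9.95 and 9.17 at T2, a fall in every screen that left it at 0.0957 times its T1 share. Over all variants the largest falls belonged to tails of few reads that were not enriched, which were PSEP, LSKR, WSED, FSGE and KSEW with Ser3 (-4.91 to -4.62) and HTGW, WTPW, ATDW, ATTP and MTMW with Thr3 (-4.61 to -4.41). PSEP, for example, had 0, 12 and 0 reads at T2, and for such tails the size of the fall is not well measured.

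Pairs that differ only at position 3 were compared next. Of 8000 pairs, the Thr3 variant changed more upward than the Ser3 variant in 1964 (24.6%) and less so in 166 (2.08%) (limma on the difference within each screen, adjusted p under 0.05). Without screen 1 the second count was 77, and without the trend the counts were 716 and 52. Where Thr3 alone was enriched in glucose, Thr3 was higher in 532 of 632 pairs and Ser3 in 0, with a median difference of 2.32 ± 0.52. Where Ser3 alone was enriched, the counts were 50 and 37 of 199, with 0.04 ± 0.09, and where neither was, 387 and 125 of 5535. These differences were taken in galactose only, so they are not separated from differences in growth without LIMK1. Among the 1634 pairs with both variants enriched, Thr3 was higher in 995, with a median difference of 0.88 ± 0.21. By residue at position 4, Thr3 was higher in 141 of 144 such pairs with Gly4 (median 2.05 ± 0.44), in 57 of 60 with Ala4 (2.50 ± 0.53), in 41 of 41 with Thr4 (2.43 ± 0.41) and in 23 of 23 with Gln4 (2.55 ± 0.44). With Leu4 it was higher in 26 of 192 (0.28 ± 0.09), with Phe4 in 46 of 141 (0.33 ± 0.11), with Trp4 in 41 of 145 (0.40 ± 0.15) and with Ile4 in 27 of 126 (0.30 ± 0.09). The medians of these 4 residues were above 0 in every screen. Among enriched pairs the Ser3 variant was higher in 4, which were PSYM (-1.04, SE 0.11), PSPT (-0.75, SE 0.24), WSYL (-0.55, SE 0.19) and KSIC (-0.52, SE 0.16), named after their values were seen. Of these, PSYM and WSYL hold Tyr4, and PSYM and PSPT hold Pro2. The 5 highest differences were in pairs of RSST (4.85, SE 0.43), TSWP (4.62, SE 0.51), TSTT (4.62, SE 0.42), QSST (4.41, SE 0.43) and MSKT (4.34, SE 0.61). Of these, 4 had Thr5, and none of the 5 Ser3 members was enriched. The 5 lowest, PSAW (-4.41), GSIP (-3.94), MSTD (-3.69), ESGH (-3.64) and WSTG (-3.64), had at most 180 reads for the Ser3 member in any T2 library. PSAW did not pass without screen 1 or screen 2, nor WSTG without screen 3, and MSKT, PSAW and MSTD did not pass without the trend (adjusted p of 0.0588, 0.0568 and 0.0535).

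Against the same interval in glucose, 428 variants changed more upward in galactose (2.67%) and 1045 more downward (6.53%) (edgeR interaction test over 12 libraries, adjusted p under 0.05). Ser3 variants made up 955 of the 1045 and Thr3 variants 316 of the 428. Without screen 2 the counts that were higher in galactose were 38 for Ser3 and 134 for Thr3 in place of 112 and 316, and 42 in place of 90 Thr3 variants were lower, and without screen 3 the higher counts were 66 and 205. On the TMM scale 896 variants were higher and 560 lower, with DESeq2's size factors 245 and 427, on the charged scale 108 and 1012, and without the block 65 and 612. Because enrichment was defined with glucose T2 libraries, which also enter this difference, the counts among enriched variants describe where the calls lie. Of the lower calls, 884 were enriched Ser3 variants, 358 of them with a small residue and 103 with Tyr at position 4, and 38 with Leu, Phe or Trp. The enriched Ser3 median changed by 0.27 ± 0.03 in glucose and by -0.45 ± 0.25 in galactose, and the enriched Thr3 median by 0.30 ± 0.04 and 0.43 ± 0.09.

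The native Ser3 tails were among the lower calls on the scale of read shares. ASGV changed by 0.12, 0.95 and 0.88 in glucose and by -0.78, -0.84 and -0.38 in galactose in screens 1, 2 and 3, a difference of -1.32 (SE 0.19, edgeR, adjusted p = 2.00e-05). RSGV differed by -1.92 (SE 0.17), ASGM by -1.53 (SE 0.17), LSGV by -1.59 (SE 0.22), LSGM by -1.22 and DSGV by -2.09 (SE 0.22). The differences of ASGV (-0.91, adjusted p = 0.0684) and LSGM (-0.81, adjusted p = 0.114) did not pass with TMM factors, and those of ASGV (-1.08), ASGM (-1.29), LSGV (-1.35) and LSGM (-0.98) did not pass with DESeq2's size factors (edgeR, adjusted p of 0.233, 0.127, 0.0580 and 0.298). None of ATGV (0.04, SE 0.15), RTGV (0.22, SE 0.18), ASLV (-0.16, SE 0.17) and ASFV (-0.09, SE 0.15) passed. Among the enriched Thr3 variants, 81 were lower in galactose, of which 51 had Tyr4 and 16 had Gln4. Their number was 14 with TMM factors, 5 with DESeq2's size factors, 37 on the charged scale and 25 without the block. Without screens 1, 2 and 3 in turn it was 74, 38 and 85. PTYV changed by -0.35, -0.16 and -0.05 in glucose and by -2.73, -2.11 and -2.01 in galactose, a difference of -2.10 (SE 0.19, edgeR, adjusted p = 5.55e-08), and PTYL differed by -2.14 (SE 0.22).

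Of the 428 higher calls, 117 had Phe5, 63 Gln5, 45 Ser5 and 44 Gly5, and 61 had Leu4 and 58 Phe4, where each residue at a position is held by 800 of the 16000 variants. These counts are a description with no test, and they rest on calls that numbered 108 on the charged scale and 172 without screen 2. For enriched Thr3 variants with Phe5 the median change was -0.26 ± 0.23 in glucose and 0.31 ± 0.08 in galactose, and for those with Gln5 -0.83 ± 0.28 and 0.12 ± 0.11. VTLQ, which had the highest difference (2.61, SE 0.29, edgeR, adjusted p = 5.93e-07), changed by -3.74, -2.85 and -4.36 in glucose and by -1.42, -0.81 and -0.85 in galactose. It fell in galactose by 1.03 (SE 0.16). On the TMM, DESeq2 and charged scales its values were 0.36, 0.79 and 0.51 and did not pass.

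**Figure D5:**
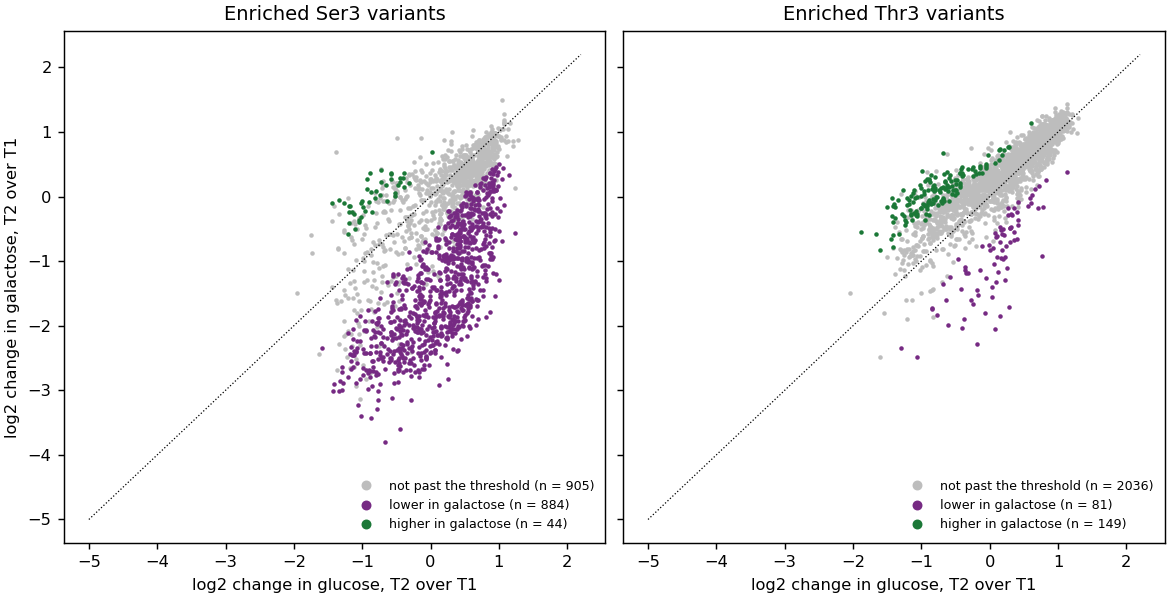
Log2 change of read share from T1 to T2 in glucose (x axis) and galactose (y axis), means of 3 screens, for each enriched Ser3 (left) and Thr3 (right) variant; purple and green points had a lower or higher change in galactose by the interaction test and the dotted line marks equal changes. The cloud of Ser3 variants extends far below the line (884 lower and 44 higher), whereas Thr3 variants follow it more closely, with 81 lower and 149 higher. On the charged scale 731 enriched Ser3 variants were lower and 1 higher (LSLE), and 37 enriched Thr3 variants were lower and 5 higher (ITGQ, ITHQ, LTTF, VTLF and VTLG). The balance of Thr3 calls turned on that scale only, since 14 were lower and 223 higher with TMM factors, and 5 and 16 with DESeq2's size factors.

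The neighbouring intervals in galactose share the T1 or the T2 libraries with this interval, so their values are set side by side only. Enriched Ser3 variants had median changes of 1.80 ± 0.25 from T0 to T1, -0.45 ± 0.25 from T1 to T2 and -0.87 ± 0.15 from T2 to T3. Enriched Thr3 variants had 1.61 ± 0.17, 0.43 ± 0.09 and 0.08 ± 0.09. The T0 libraries also enter the score by which enriched variants were chosen. Variants that were not enriched went from -3.10 ± 0.31 to -2.53 ± 0.55 and -0.63 ± 0.25 with Ser3 and from -3.03 ± 0.29 to -2.21 ± 0.54 and -0.59 ± 0.25 with Thr3. For enriched Ser3 variants with Gly4 the T2 to T3 median was -1.63, and for those with Leu4 it was 0.03.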

How the data were processed

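The authors amplified the variable region of plasmids recovered from yeast with barcoded primers, sequenced it and assigned reads to variants, and the deposited values are raw counts. The program that assigned reads is not given in the sources used here, nor whether the random bases of the primers were used to merge PCR duplicates, so reads need not be independent molecules. Counts of the 3 screens were joined by residues at positions 2 to 5. All coding sequences translated to their names. The count columns of 18 libraries were used, 6 others were not, and no variant was filtered. Shares are reads over the library total (18909009 to 36675500 reads at T1 and 11562967 to 42922753 at T2 in galactose).

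For changes, edgeR 4.0.16 was run (quasi-likelihood test, library size equal to total reads, screen as a block). Its SE was derived from the test statistic, with a spread moderated over all variants, so it is not the spread between screens. The changes of ASGM, for example, had an SD of 0.38 over the screens and an SE of 0.12. The galactose minus glucose difference used culture as a block over 12 libraries. Pairs and residue terms were fitted with limma 3.58.1 from a value for each screen (for pairs, a trend on mean log2 reads, and for terms at least 10 enriched variants), with 0.5 reads added before log2. DESeq2 1.42.0 gave an alternative test and size factors. The Benjamini-Hochberg threshold was 0.05 over all variants, pairs or terms. Medians are given per screen with their SD. Pairing by screen number follows the labels, and the deviations of same-numbered T1 and T2 libraries correlated (r of 0.240, 0.320 and 0.370, against at most -0.0793 for other numbers). Named are native tails with their Thr3 partners, tails the study tested one at a time, series at positions 4 and 5 of the human tail, and the 5 highest and lowest that passed with the same sign in every screen. Members, lists and tests were chosen with earlier results of these data known. The scripts were tested on simulated counts with known log2 changes of 1 and 2. Of these, 25 and 54% were recovered for galactose, 16 and 35% for the galactose minus glucose difference, and 7.14 and 42.6% for pairs. A variant or pair that did not pass may thus still have changed. R 4.3.3, Python 3.11.15, pandas 2.3.3, numpy 2.4.6 and matplotlib 3.10.9 were used. Alternatives were other scalings, DESeq2's test, a filter on mean reads, no block, a fit over both sugars, 1 read added, no trend, a score above 1 and leaving out each screen.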

Additional observations from a re-analysis of the deposited data

Results flagged for a closer look

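The change from T1 to T2 differed between galactose and glucose, by the edgeR interaction test, in 955 Ser3 variants that were lower and 112 that were higher in galactose, and in 90 Thr3 variants that were lower and 316 that were higher. Of the tails named above, the native and related Ser3 tails ASGV (-1.32), RSGV (-1.92), ASGM (-1.53), LSGV (-1.59), LSGM (-1.22) and DSGV (-2.09) and the Thr3 tails PTYV (-2.10) and PTYL (-2.14) were lower in galactose. Of these, ASGV and LSGM did not pass with TMM factors, nor ASGV, ASGM, LSGV and LSGM with DESeq2's size factors. Among enriched variants the lowest differences were those of GSCT (-3.14), WSHP (-3.10), GSGA (-3.08), GSGT (-3.05) and LSGA (-2.85), of which 4 have Gly or Cys at position 4. The highest were those of ITGQ (1.41), VTLF (1.37), VTLG (1.36), ITHQ (1.36) and ASFG (1.35), all with Gln, Phe or Gly at position 5. Of these 10, GSCT, WSHP and GSGA did not pass without screen 1, LSGA, VTLG and ASFG not without screen 2, and GSGA and ASFG not without screen 3, and ASFG did not pass on the charged scale.

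Over all variants the lowest differences were those of SSSR (-3.38), DSAG (-3.34), ATRN (-3.32), STRR (-3.26) and HSPE (-3.22), each with at most 22 reads in any T2 library in galactose, and each lost the call when at least 1 screen was left out. The highest were those of VTLQ (2.61), QSTN (2.55), ETWS (2.47), LTHG (2.41) and GTLG (2.34), none of them enriched in glucose. QSTN and GTLG did not pass without any 1 of the screens, and LTHG did not pass without screen 2 or screen 3. The part of read depth in these values was not tested.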

How the results depend on the processing

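Scaling changed the split of calls most. In the order Ser3 higher, Ser3 lower, Thr3 higher and Thr3 lower, the galactose counts of 387, 6473, 1263 and 5205 became 1163, 2914, 2371 and 1801 with TMM factors, 1371, 1253, 2627 and 704 under DESeq2 scaling, and 1242, 2246, 2460 and 1331 on the charged scale. The counts of the galactose minus glucose difference (112, 955, 316 and 90) became 245, 539, 651 and 21 with TMM factors and 71, 415, 174 and 12 under DESeq2 scaling, and on the charged scale the higher counts were 35 and 73. Scaling moves every variant alike, so differences between groups of variants within a culture do not change.

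On the TMM, DESeq2 and charged scales, in that order, the log2 changes turned from a fall to 0.73, 1.15 and 0.87 for ASGV, 0.32, 0.74 and 0.47 for RSGV, 0.86, 1.28 and 1.01 for ASGM, 0.38, 0.80 and 0.53 for LSGV, 0.050, 0.47 and 0.19 for ASPV, 0.65, 1.07 and 0.80 for ATAV, 0.36, 0.79 and 0.51 for VTLQ, 0.83, 1.25 and 0.98 for ETWS, and 0.28, 0.70 and 0.43 for LTHG. Of these, the values of RSGV, LSGV, ASPV, VTLQ and LTHG did not pass on any of these scales. That of ATAV did not pass with TMM factors (edgeR, adjusted p = 0.0567). With DESeq2's size factors alone DSGV (0.18) and ATYV (0.20) also turned, without passing. LSGM, which did not pass as a share of reads, was at 1.12, 1.54 and 1.27 on these scales and ASIV at 1.39, 1.81 and 1.54, all past the threshold. On the charged scale the medians were 1.09 for enriched Ser3, 1.97 for enriched Thr3, -0.052 for Ser3 with a small and 1.94 with a large hydrophobic residue at position 4. With a score above 1 the enriched Thr3 median was 0.55.

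Without the replicate block, 244 Ser3 variants were higher in galactose, and the counts of the difference were 13, 585, 52 and 27, and the galactose changes of ASGM, ASLV, ASFV, ASPV, FTGL and ATAV did not pass. Leaving out each screen gave 38 to 130 Ser3 higher, 134 to 364 Thr3 higher and 42 to 106 Thr3 lower variants for the difference, and 77 to 165 pairs with Ser3 higher. Without the trend, limma called 716 pairs with Thr3 higher and 52 with Ser3 higher. The causes were not tested. Few reads at T2 limit the measured size of large falls.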
